A study of Homo sapiens with 30 samples.

Results

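The 9 genes described here are NFE2L2, which encodes the transcription factor NRF2, and 8 genes that NRF2 is known to activate: GCLC, GCLM, TXNRD1, GSR, OSGIN1, SRXN1, NQO1 and HMOX1. They were taken by symbol from a table of read counts that held 60107 genes, and all 9 were found, each as 1 gene identifier. The table came from 30 cultures of HepG2, a human liver cancer line that the labels call hepatocellular carcinoma and the study calls hepatoblastoma, in 10 groups of 3 cultures. All cells were transfected with an oligonucleotide, the medium was changed 6 h later, and sorafenib, a kinase inhibitor used against advanced liver cancer, was added at 10 µM 24 h after transfection, while controls got its solvent DMSO in parallel. In the 6 h experiment, cells carried an inhibitor control (IC) or an antisense inhibitor of miR-200c-3p (I200c) and were lysed 6 h after sorafenib or DMSO. In the 24 h experiment, cells carried a mimic control (MC) or a mimic, either that of miR-222-5p (named M222) or that of miR-512-3p (named M512), and were lysed after 24 h of sorafenib or DMSO. No group was left without transfection, the 2 times carry different control oligonucleotides, and the labels do not say how the 3 replicates of a group were separated. The study calls its replicates independent without saying whether they were separate passages or days, so the p-values measure the spread between these cultures. The questions put to these genes are what sorafenib did to them at each time, and whether an inhibitor or mimic changed them in DMSO.

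NRF2 is made constantly and destroyed constantly: KEAP1, an adaptor of a CUL3 and RBX1 ubiquitin ligase, marks it for the proteasome. When oxidants or electrophiles modify cysteines of KEAP1, new NRF2 escapes, enters the nucleus, pairs with a small MAF protein (MAFF, MAFG or MAFK) and binds antioxidant response elements (AREs), which BACH1 otherwise occupies as a repressor. Its targets make glutathione, recycle glutathione and thioredoxin, reduce quinones and break down haem, and in liver they form a main defence against reactive metabolites. Because this control acts on the protein, the NFE2L2 transcript is not itself a readout of NRF2 activity.

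At 24 h, sorafenib raised the transcripts of both subunits of the enzyme that starts glutathione synthesis and of the main cytosolic thioredoxin reductase, in cells with the mimic control and with either mimic. GCLM was 2.76, 3.99 and 4.41 times its DMSO level in MC, M222 and M512, GCLC 2.09, 2.33 and 2.5 times, and TXNRD1 2.25, 2.8 and 1.98 times. GSR also rose in MC and M222, and OSGIN1 in M222 and M512. At 6 h, none of the 8 genes tested rose past the test, and TXNRD1 fell in I200c to 0.578 times its DMSO level. SRXN1 had too few counts to be tested at 6 h. NQO1, which is often used as a readout of NRF2, passed the test in no comparison. Neither did HMOX1 or NFE2L2, nor SRXN1 at 24 h. No inhibitor or mimic changed any tested gene of the 9 past the edgeR test in DMSO or in sorafenib. GCLM in M512 against MC in sorafenib was at 1.24 on the log2 scale (edgeR adjusted p = 0.0723). It passed with DESeq2 (adjusted p = 0.00907) and some other alternatives, but not with all.

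The 3 miRNAs are shown because the oligonucleotides block or imitate them, and their bases 2 to 8, the seed in capitals, pair with a target's 3′ untranslated region (UTR). The mature sequences are from RefSeq on GRCh38.p14, 5′ to 3′, and the 3 seeds differ from each other. miR-200c-3p lies at chr12:6963742-6963764 on the plus strand, miR-222-5p at chrX:45747073-45747094 on the minus strand, and miR-512-3p at chr19:53666729-53666750 and chr19:53669213-53669234 on the plus strand.
miR-200c-3p: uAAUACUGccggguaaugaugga
miR-222-5p: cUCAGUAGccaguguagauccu
miR-512-3p: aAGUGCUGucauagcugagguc

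A site here is the 7-base complement of a seed. CAGTATT is thus the site of miR-200c-3p, the letters CTACTGA are that of miR-222-5p, and a site of miR-512-3p reads CAGCACT. On the transcript strand, these letters stand in the 3′ UTR of 16%, 9.2% and 19.6% of the 19559 genes whose canonical GENCODE transcript has one. Among the 9 genes, the sites shown are 1 each in HMOX1 and GCLM for miR-200c-3p, 1 in SRXN1 for miR-222-5p and 1 in TXNRD1 for miR-512-3p, and for miR-512-3p this is not a full list. The windows below, read from GRCh38 on the strand of the gene with the site in capitals, are the places where an effect of an oligonucleotide on these genes could be looked for. The sites lie at chr22:35394063-35394069 (plus strand), chr1:93885789-93885795 (minus), chr20:647912-647918 (minus) and chr12:104349803-104349809 (plus), in the order printed.
HMOX1, miR-200c-3p: agcctcaaatgCAGTATTtttgttgtgtt
GCLM, miR-200c-3p: gatttttcaccCAGTATTttcaaaatttg
SRXN1, miR-222-5p: tcgtgttccatCTACTGAgactggcacac
TXNRD1, miR-512-3p: tttctcagttgCAGCACTgagtggtcaaa

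Promoter windows of 300 bases around the transcription start came from RefSeq on GRCh38.p14. They were at hand for 7 of the 9 genes, with HMOX1 and GSR named only. They were searched on both strands for the ARE core TGACNNNGC, which 13.3% of the 35116 promoters in the table hold, and for the AP-1 motif TGANTCA, which 7.71% hold. The 2 motifs can overlap, since TGACTCAGC would match both. GCLM and TXNRD1 hold ARE letters, and OSGIN1 holds the AP-1 letters and no ARE letters. GCLC, which like GCLM and TXNRD1 rose at 24 h in every transfection, holds no ARE letters. Among genes with a window, ARE letters were thus in 2 of 7 here. In the lists described below they were in 3 of 9 NRF2 regulators and partners and 5 of 16 other NRF2 targets. They were also in 3 of 9 genes of glutathione handling and 0 of 14 other antioxidant enzymes. A gene counts here where any of its windows held the letters, and some genes have several windows. The 13.3% is a share of single promoters, so these counts are not measured alike. NQO1, GCLC, SRXN1 and NFE2L2 have neither motif in these windows, which says only that these letters are not there. Sequence outside the 300 bases was not searched, so elements further from the start would be missed. The matches are printed on the strand of the gene with the motif in capitals, where the ARE core of the opposite strand reads in reverse complement. They lie at chr1:93909456-93909464 (gene on the minus strand), chr12:104215680-104215688, chr12:104215771-104215779, chr12:104286930-104286938 and chr16:83953143-83953149 (genes on the plus strand).
GCLM, first base at -34 from the start: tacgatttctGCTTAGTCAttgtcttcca
TXNRD1 first promoter, -99: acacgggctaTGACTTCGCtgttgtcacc
TXNRD1 first promoter, -8: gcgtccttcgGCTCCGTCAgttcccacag
TXNRD1 second promoter, -102: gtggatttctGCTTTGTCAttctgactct
OSGIN1, AP-1, -97: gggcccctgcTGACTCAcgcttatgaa

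The libraries were made with the QuantSeq 3′ FWD kit, in which a transcript gives a read close to its 3′ end, and held 3940000 to 9660000 counts each (median 6460000). A level of a gene is given as CPM, a count relative to the total of its library, after TMM scaling, on 1 scale for all 30 libraries. Before TMM scaling, 3 counts correspond to 0.311 to 0.762 CPM, counting error only. Pairs of replicates correlated at r = 0.914 to 0.978 across genes, no 2 libraries were identical, and replicates differed by more than counting error in every group. The cells expressed the liver markers fixed for them (ALB 2350 to 5110 CPM, APOB 1420 to 5930, AFP 706 to 3190), while the leukocyte marker CD3E, the endothelial marker VWF and the fibroblast markers COL1A2 and DCN were at 0 in all 30 libraries. Other markers of these cell types were found at low levels, with the leukocyte markers summing to at most 2.03 CPM in a library (mostly CD14), the endothelial ones to at most 3.02 (mostly PECAM1) and the fibroblast ones to at most 11.6, all of it COL1A1, which was at 0 in 4 libraries. Differences are log2 fold changes with the standard error (SE) from edgeR's quasi-likelihood test, fitted on the 12738 genes tested at 6 h and the 13244 tested at 24 h, and a gene is called where the Benjamini-Hochberg adjusted p over all genes of a fit is under 0.05. Of the 9 genes, 8 passed the filter on low counts at 6 h and all 9 at 24 h, the difference being SRXN1. In GENCODE 44 the last exon, where these libraries read, is touched by another gene only in SRXN1 and in NQO1, the latter by an antisense gene, ENSG00000261602, with 1 count over all libraries.

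**Figure D1:**
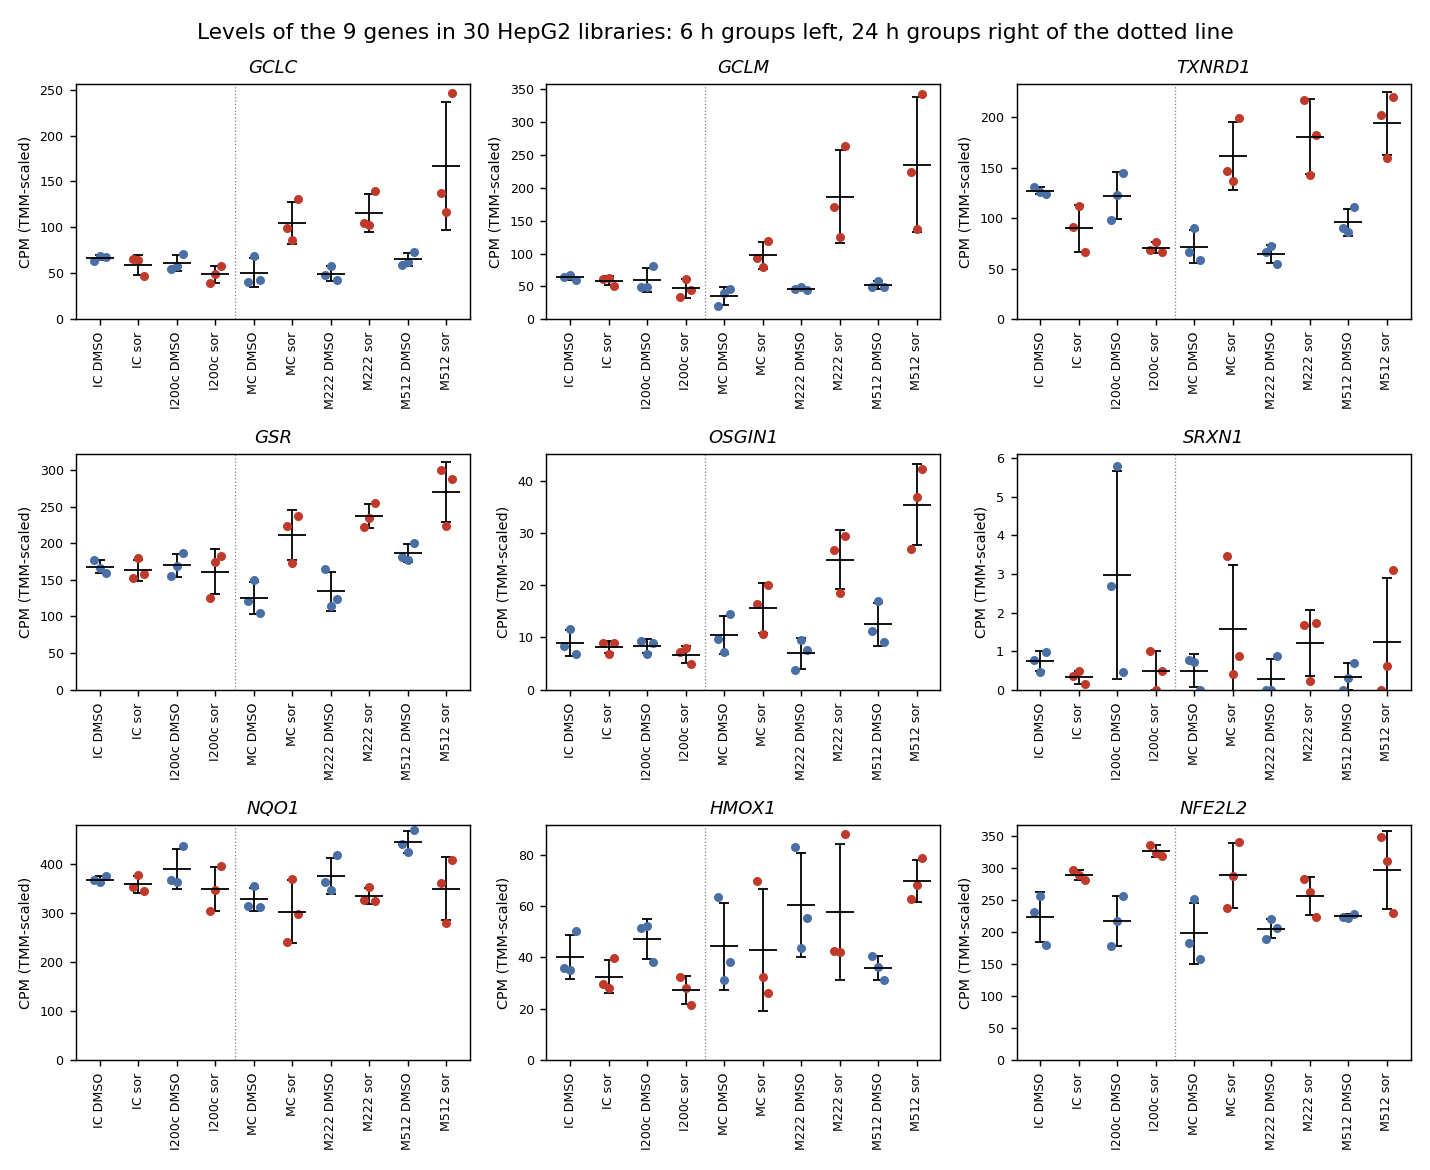
Level of each of the 9 genes (CPM, TMM-scaled, linear axis from 0) in the 10 groups, with DMSO in blue and sorafenib in red, 1 point per library, the long bar at the mean and the whiskers at 1 SD (n = 3; whiskers below 0 for SRXN1 are clipped). Right of the dotted line, at 24 h, all 9 sorafenib points of GCLM (79.1 to 343 CPM) lie above its 9 DMSO points, while NQO1 shows no such separation in MC or M222.

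GCLC (ENSG00000001084, chr6:53497341-53616970, minus strand on GRCh38) and GCLM (ENSG00000023909, chr1:93885199-93909456, minus strand) encode the catalytic and the modifier subunit of glutamate-cysteine ligase, the rate-limiting enzyme of glutathione synthesis. GCLM in MC was at 20, 40.5 and 46 CPM with DMSO and at 93.2, 79.1 and 119.6 with sorafenib. In M222 it was at 46.1, 49.2 and 44.4 against 170.3, 125 and 264, and in M512 at 49.1, 58.7 and 48.7 against 224, 138 and 343. In each of the 3 transfections the lowest sorafenib culture thus stood above the highest DMSO culture, and the spread between cultures was widest in M512 with sorafenib (235 ± 103 CPM, SD, n = 3). The log2 fold changes of GCLM were 1.47 (SE 0.31), 2.00 (SE 0.31) and 2.14 (SE 0.31) in MC, M222 and M512 (edgeR adjusted p = 0.00856, 0.000563 and 7.01e-05). GCLC in MC was at 40.3, 68.6 and 42.9 CPM with DMSO and 99, 86 and 130.4 with sorafenib. The corresponding values were 48.1, 58 and 42.7 against 105, 103 and 139.5 in M222, and 59.5, 62.8 and 73.4 against 138, 117 and 246 in M512. Again no sorafenib culture overlapped the DMSO cultures of its transfection, and the third M512 culture with sorafenib held the highest value of both subunits. GCLC rose by 1.06 (SE 0.26), 1.22 (SE 0.26) and 1.32 (SE 0.26) on the log2 scale (edgeR adjusted p = 0.0268, 0.00727 and 0.00173). At 6 h the log2 fold changes were -0.19 and -0.33 for GCLC and -0.14 and -0.36 for GCLM in IC and I200c, with overlapping cultures and edgeR adjusted p from 0.399 to 0.999. In MC the calls leaned on single cultures: that of GCLC was lost without DMSO replicate 1 or 3 (edgeR adjusted p = 0.141 and 0.187) or sorafenib replicate 1 or 3 (0.0663 and 0.186), and that of GCLM without DMSO replicate 1 (0.0707) or sorafenib replicate 3 (0.0683). In M222 the call of GCLC was lost without DMSO replicate 3 (edgeR adjusted p = 0.0533), while its other calls in M222 and M512, and those of GCLM there, held without any 1 library.

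TXNRD1 (ENSG00000198431, chr12:104215779-104350307, plus strand) encodes the selenoprotein that keeps cytosolic thioredoxin reduced, and GSR (ENSG00000104687, chr8:30678066-30727846, minus strand) encodes glutathione reductase, which regenerates glutathione from its disulfide with NADPH. At 6 h, TXNRD1 was at 98.8, 123 and 145 CPM in I200c with DMSO and at 69, 76.9 and 66.9 with sorafenib. In IC it was at 131, 126 and 124 against 91.3, 113 and 66.2. In both transfections every sorafenib culture lay below every DMSO culture. TXNRD1 fell in I200c by 0.79 on the log2 scale (SE 0.18, edgeR adjusted p = 0.0222), and its log2 fold change in IC was -0.51 (SE 0.18) (edgeR adjusted p = 0.909). The call in I200c was lost without I200c DMSO replicate 3 (edgeR adjusted p = 0.0951), without I200c sorafenib replicate 1, 2 or 3 (0.0938, 0.0647 and 0.0656), and in a fit of all 30 libraries (0.0633). At 24 h the order of the groups was the opposite: 66.7, 90.5 and 58.7 CPM with DMSO against 147, 137 and 199.8 with sorafenib in MC. In M222 the values were 66.5, 72.3 and 54.5 against 218, 143 and 182, and in M512 90.1, 86.5 and 111 against 202, 160.0 and 220.3. All 9 sorafenib cultures of 24 h stood above all 9 DMSO cultures of 24 h. TXNRD1 rose by 1.17 (SE 0.22), 1.49 (SE 0.22) and 0.99 (SE 0.22) on the log2 scale in MC, M222 and M512 (edgeR adjusted p = 0.00324, 0.000427 and 0.00458), and these calls held without any 1 library.

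GSR at 24 h was at 122, 149 and 105 CPM with DMSO and 223, 173 and 238 with sorafenib in MC, and at 165, 114 and 124 against 222.3, 234 and 254 in M222. In M512 it was at 181, 178 and 201 against 299.9, 223 and 287. The groups did not overlap in any of the 3, but the 3 DMSO cultures of M512 all lay above those of MC. The log2 fold changes were 0.76 (SE 0.20, adjusted p = 0.0374), 0.81 (SE 0.20, adjusted p = 0.0171) and 0.51 (SE 0.20, adjusted p = 0.103), from edgeR, so that GSR rose in MC and M222 and did not pass the test in M512. The call in MC was lost without MC DMSO replicate 1 or 3 (edgeR adjusted p = 0.131 and 0.248), MC sorafenib replicate 1 or 3 (0.141 and 0.202) or M512 DMSO replicate 1 (0.0559), and that in M222 without M222 DMSO replicate 2 or 3 (0.0547 and 0.0914) or M222 sorafenib replicate 3 (0.0695). At 6 h, the log2 fold changes of GSR were -0.05 (SE 0.15) in IC and -0.08 (SE 0.15) in I200c.

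OSGIN1 (ENSG00000140961, chr16:83931311-83966332, plus strand) encodes a growth inhibitor induced by oxidative stress. It was at 3.71, 9.52 and 7.64 CPM with DMSO and 26.8, 18.6 and 29.4 with sorafenib in M222, and at 11.3, 17.1 and 9.15 against 27, 37 and 42.3 in M512. In MC it was at 9.63, 7.28 and 14.6 against 16.5, 10.6 and 20.1. The cultures were apart in both mimics and overlapped in MC. OSGIN1 rose by 1.87 (SE 0.38) in M222 and 1.47 (SE 0.37) in M512 on the log2 scale (edgeR adjusted p = 0.00558 and 0.0111), against 0.58 (SE 0.37, adjusted p = 0.445) in MC. The call in M512 was lost without M512 DMSO replicate 1 (edgeR adjusted p = 0.0532) or 3 (0.0645). Whether the mimics altered the sorafenib effect is asked by the interaction, which was 1.28 (SE 0.53, adjusted p = 1) for M222 and 0.88 (SE 0.52, adjusted p = 0.965) for M512 in edgeR, so a difference from MC was not shown. At 6 h, OSGIN1 was at 4.90 to 11.6 CPM in every library, with log2 fold changes of -0.13 (SE 0.32) and -0.33 (SE 0.31).

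SRXN1 (ENSG00000271303, chr20:646615-653200, minus strand), the sulfiredoxin that repairs overoxidised peroxiredoxins, could barely be measured. It had 204 counts over all 30 libraries, from 0 to 47 in a library, and was at 0 in 6 libraries. Its highest group mean was in I200c with DMSO, from cultures at 2.68, 5.79 and 0.448 CPM, and MC with sorafenib held 3.46, 0.399 and 0.885. The median over the 30 libraries, 0.546 CPM, lay within the range that 3 counts correspond to before TMM scaling. It did not pass the filter at 6 h, and at 24 h its log2 fold changes of 1.68, 2.03 and 1.84 had SEs of 1.60, 1.67 and 1.61 (edgeR adjusted p = 0.648, 0.552 and 0.529), so a change was not detectable at these counts. In GENCODE 44, the last exon of SRXN1 is overlapped on the same strand by the protein-coding gene ENSG00000270299, which had 0 counts in all libraries, and the effect of this overlap on the counting was not tested.

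NQO1 (ENSG00000181019, chr16:69706996-69726668, minus strand) encodes a quinone reductase and HMOX1 (ENSG00000100292, chr22:35380361-35394214, plus strand) haem oxygenase 1, which breaks haem down to biliverdin, iron and carbon monoxide. NQO1 ranged from 240.0 to 468 CPM over the 30 libraries, and its mean was 327 ± 23.7 with DMSO and 302 ± 64.4 with sorafenib in MC (SD, n = 3). In M512 it was at 440.2, 424 and 468 CPM with DMSO and 360.3, 279.6 and 408 with sorafenib, the only transfection in which its groups did not overlap, with sorafenib the lower. Its log2 fold changes were -0.05, -0.16, -0.11, -0.17 and -0.38 in IC, I200c, MC, M222 and M512, with SEs of 0.14 at 6 h and 0.18 at 24 h and edgeR adjusted p from 0.207 to 0.999. HMOX1 in I200c was at 51.4, 52.1 and 38.1 CPM with DMSO and 32.5, 28.1 and 21.4 with sorafenib at 6 h. In M512 at 24 h it was at 40.5, 36.2 and 31.1 against 62.5, 68 and 78.6. In these 2 transfections the groups did not overlap, with sorafenib lower at 6 h and higher at 24 h. The log2 fold changes of HMOX1 were -0.79 (SE 0.21, adjusted p = 0.0557) in I200c and 0.92 (SE 0.34, adjusted p = 0.0906) in M512, from edgeR. The value in I200c passed with DESeq2 (adjusted p = 0.0279). In edgeR it passed with scaling by total counts (0.0474), without the filter on low counts (0.0158) and without I200c DMSO replicate 3 (0.0396). That in M512 passed in edgeR without the filter (0.0113), with all 30 libraries in 1 fit (0.0338) and without MC sorafenib replicate 1 (0.0419). In MC and M222 the log2 fold changes of HMOX1 were -0.04 (SE 0.34) and -0.08 (SE 0.34), with single cultures as high as 88.2 CPM (M222 with sorafenib) and as low as 26.1 (MC with sorafenib).

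NFE2L2 (ENSG00000116044, chr2:177218667-177392756, minus strand) was at 231, 256 and 180.2 CPM with DMSO and 296, 288 and 282 with sorafenib in IC. In I200c it was at 178, 217 and 256 against 336, 324 and 318. At 6 h all 6 sorafenib cultures thus stood above all 6 DMSO cultures. The log2 fold changes were 0.36 (SE 0.16, adjusted p = 0.999) in IC and 0.58 (SE 0.15, adjusted p = 0.0521) in I200c, from edgeR, and neither passed. The value in I200c passed with DESeq2 (adjusted p = 0.00952). In edgeR it passed without the filter on low counts (0.0153), without IC DMSO replicate 3 (0.0358) and without I200c DMSO replicate 2 (0.0499) or 3 (0.0277). At 24 h NFE2L2 was at 183, 252 and 158 against 238, 287 and 340.1 in MC, where the groups overlapped, with a log2 fold change of 0.54 (SE 0.20, adjusted p = 0.15) in edgeR that passed without MC DMSO replicate 2 (0.0466). In M222 and M512 the log2 fold changes were 0.32 (SE 0.20, adjusted p = 0.417) and 0.37 (SE 0.20, adjusted p = 0.267) in edgeR. NFE2L2 and TXNRD1 lay in opposite orders at 6 h, where sorafenib cultures had more NFE2L2 and less TXNRD1, and in the same order at 24 h.

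**Figure D2:**
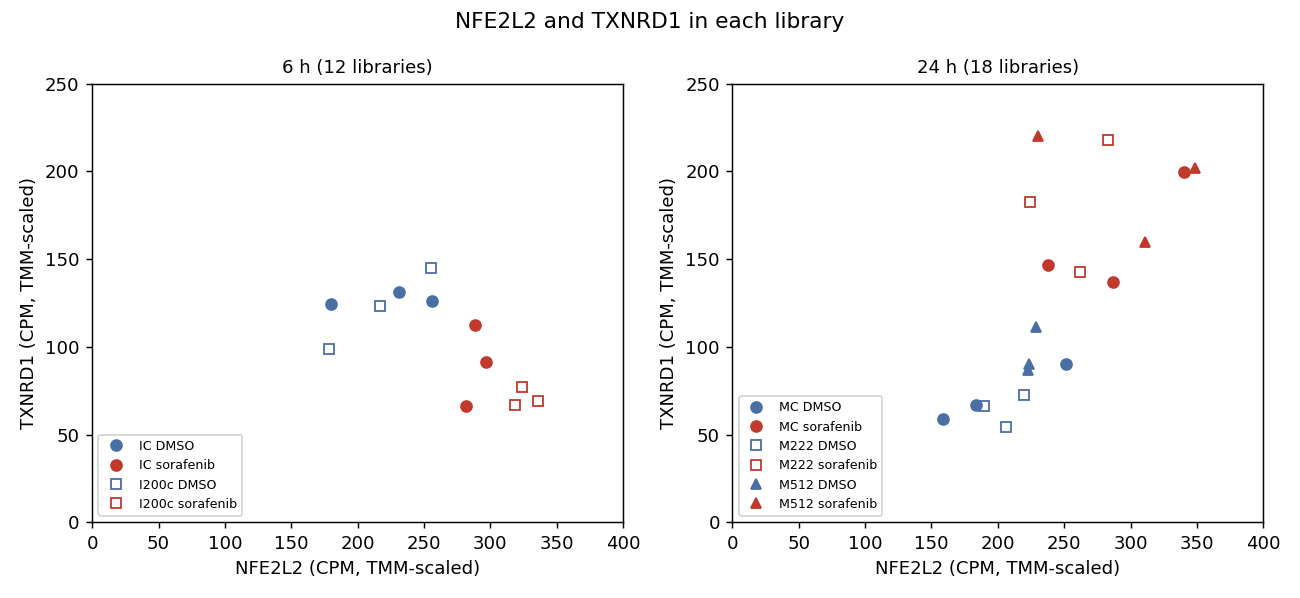
TXNRD1 against NFE2L2 (both CPM, TMM-scaled) in each library at 6 h (left, 12 libraries) and 24 h (right, 18 libraries), with DMSO in blue, sorafenib in red and the transfection as the marker shape. At 6 h the red points lie to the right of and mostly below the blue ones (NFE2L2 282 to 336 CPM against 178 to 256), and at 24 h all red points lie above the blue ones (TXNRD1 137 to 220.3 CPM against 54.5 to 111).

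Counted by comparison, 0 of the 8 genes tested were called for sorafenib in IC, where 0.0393% of all genes were called, and by DESeq2 also 0; 2 of the 8 had an unadjusted edgeR p under 0.05, against 481 of 12738 genes. In I200c, 1 of 8 was called, and lower, against 2.28% of all genes either way and 1.37% lower. At 24 h, 4 of 9 were called in MC, 5 of 9 with the M222 mimic and 4 of 9 with M512, and every one of these was higher. Over all genes, 2.6% were called in MC (1.8% higher), 4.38% in M222 (2.82% higher) and 9.96% in M512 (5.34% higher). Leaving out 1 library moved these counts over all genes by over 1.5 times: from 344 in MC to between 112 (without MC DMSO replicate 3) and 602 (without MC sorafenib replicate 2), from 580 in M222 to as few as 204 (without M222 DMSO replicate 3) and from 1319 in M512 to as few as 760 (without M512 DMSO replicate 2). With DESeq2 the counts of these genes were 3 in I200c, 4 in MC, 5 in M222 and 4 in M512. The median log2 fold change of the genes tested was -0.13 in IC and -0.33 in I200c at 6 h, and 0.76, 1.22 and 0.99 in MC, M222 and M512, while the median over all genes tested was 0.00 at 6 h and -0.01, -0.03 and -0.03 at 24 h. Groups of cultures did not overlap for 2 of these genes in IC, 3 in I200c, 4 in MC, 6 with the M222 mimic and 8 with M512, and for 13%, 17.3%, 25%, 26.8% and 29.8% of all genes tested. The effects in MC, M222 and M512 were measured in separate cultures with their own DMSO groups. Scaling by total counts in place of TMM moved the median of all genes by -0.11, -0.10 and -0.19 in these 3, and left 2 of 9 called in MC (GCLM and TXNRD1) without turning the direction of any call. Without MC DMSO replicate 1 or MC sorafenib replicate 3, 1 of 9 was called in MC, and without M222 DMSO replicate 3, 3 of 9 were called in M222. The summed level of 7 hepatocyte markers moved with sorafenib at 24 h too, from 11900 to 12400 CPM in MC with DMSO to 7830 to 9840 with sorafenib, from 10100 to 12500 to 6380 to 8930 in M222 and from 14300 to 15600 to 8550 to 9570 in M512. All 7 were detected in every library, the part of this shift in the levels above was not tested, and in bulk RNA fewer cells of a kind and less RNA per cell cannot be told apart.

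**Figure D3:**
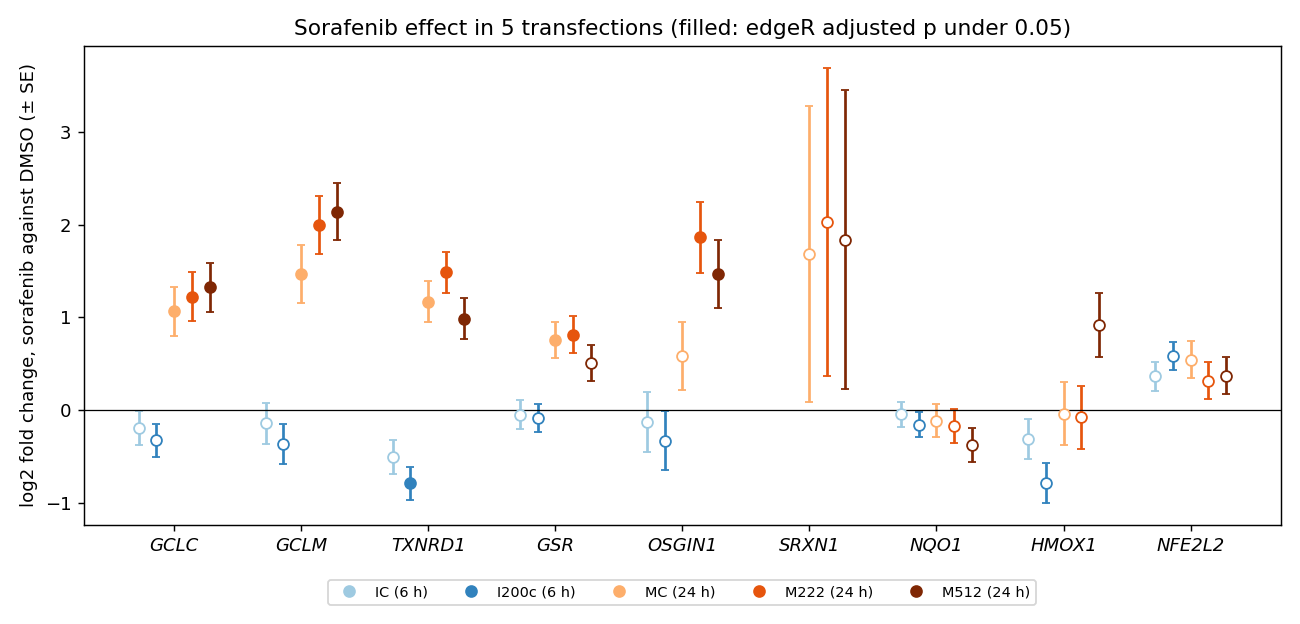
Log2 fold change of sorafenib against DMSO for each of the 9 genes in the 5 transfections, with bars of 1 SE; blue is 6 h, orange to brown is 24 h, and filled points have an edgeR adjusted p under 0.05. GCLC, GCLM and TXNRD1 are filled in all 3 transfections of 24 h (0.99 to 2.14), and TXNRD1 in I200c is the 1 filled point at 6 h (-0.79).

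Whether the response at 24 h differed from that at 6 h was tested in the 12 transfection-control libraries as the interaction of sorafenib with experiment, MC at 24 h against IC at 6 h. Time and control oligonucleotide cannot be told apart in it. TXNRD1 was called, since its log2 fold change was -0.51 at 6 h and 1.17 at 24 h and the difference 1.66 (SE 0.29) (edgeR adjusted p = 0.0253), against 0.216% of the 12500 genes tested. That call was lost in 9 of the 12 fits that left out 1 library: without IC DMSO replicate 1, 2 or 3 (edgeR adjusted p = 0.0895, 0.0645 and 0.0755), IC sorafenib replicate 1, 2 or 3 (0.103, 0.054 and 0.0707), MC DMSO replicate 1 or 3 (0.0796 and 0.0698) or MC sorafenib replicate 3 (0.112). The estimate stayed between 1.48 and 1.87 in all 12. For GCLM and GCLC the differences were 1.58 (SE 0.35, adjusted p = 0.0727) and 1.24 (SE 0.31, adjusted p = 0.105) in edgeR. Both passed with DESeq2 (adjusted p = 0.00337 and 0.0162). In edgeR both passed without the filter on low counts (3.5e-05 and 0.00302), without MC DMSO replicate 2 (0.0331 and 0.0177) and without MC sorafenib replicate 2 (0.0197 and 0.0347). For GSR the difference was 0.78 (SE 0.23, adjusted p = 0.151) in edgeR, and it passed without MC sorafenib replicate 2 (0.0476). The differences of OSGIN1, HMOX1, NFE2L2 and NQO1 were 0.67 (SE 0.48), 0.24 (SE 0.46), 0.16 (SE 0.26) and -0.09 (SE 0.21), and none passed the test.

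Oligonucleotides were compared with their control in DMSO. For the inhibitor of miR-200c-3p, none of the 8 genes tested was called, against 0.0157% of all genes, and the log2 fold changes ran from -0.12 for GCLC to 0.24 for HMOX1. HMOX1 and GCLM, whose UTR holds the site of that miRNA, were at 0.24 (SE 0.21) and -0.08 (SE 0.22). For the mimic of miR-222-5p, 0 of 9 were called and 0% of all genes (with a replicate block, 0 of 9 and 3 of all genes), and SRXN1, which holds its site, was at -0.77 (SE 1.70). For the mimic of miR-512-3p, 0 of 9 were called, against 0.634% of all genes. GSR was at 0.57 (SE 0.20) and NQO1 at 0.44 (SE 0.18) (edgeR adjusted p = 0.245 and 0.367), and these 2 together with GCLM, at 0.56 (SE 0.31, adjusted p = 0.547), were the 3 of 9 whose DMSO cultures did not overlap those of MC, as was so for 21.5% of all genes. For NQO1 the M512 cultures were at 440.2, 424 and 468 CPM against 315, 354 and 312 in MC. TXNRD1, which is among the genes whose UTR holds the letters of the miR-512-3p site, was at 0.41, not lower than MC. Of the fibroblast markers, COL1A1 stood at 7.64 to 11.6 CPM in M512 with DMSO against 0 to 4.12 in MC with DMSO. COL1A2 and DCN were at 0 in all 30 libraries, and any link of COL1A1 to the values above was not tested. No gene had separate groups for M222 against MC in DMSO, against 12.7% of all genes. By DESeq2 the counts in DMSO were also 0 for all 3 oligonucleotides, and the numbers of these genes with an unadjusted edgeR p under 0.05 were 0, 0 and 2 for I200c, M222 and M512, against 667 of 12738, 737 of 13244 and 1385 of 13244 genes.

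In sorafenib, 0 of 8 were called for I200c against IC and 0 of 9 for either mimic against MC, against 0%, 0% and 0.355% of all genes for I200c, M222 and M512. The numbers with an unadjusted edgeR p under 0.05 were 0, 1 and 3, against 273 of 12738, 800 of 13244 and 1465 of 13244 genes. DESeq2 called 0, 0 and 1 of these genes, against 0, 26 and 227 of all genes. The 1 was GCLM, with 235 ± 103 CPM in M512 against 97.3 ± 20.6 in MC (SD, n = 3). Its log2 fold change was 1.24 (SE 0.30, adjusted p = 0.0723) in edgeR, and it passed with DESeq2 (adjusted p = 0.00907), with all 30 libraries in 1 fit (0.0178), with a replicate block (0.0351), without the filter on low counts (1e-04), and without MC DMSO replicate 1 (0.0394) or M512 sorafenib replicate 2 (0.0137). OSGIN1 and GCLC were at 1.13 (SE 0.36) and 0.63 (SE 0.26) in M512 against MC (edgeR adjusted p = 0.192 and 0.347), and GCLM in M222 at 0.91 (SE 0.30, adjusted p = 0.582). As interactions of oligonucleotide and sorafenib, 0 of these genes were called by edgeR or DESeq2 for I200c, M222 or M512, against 0%, 0% and 0.00755% of all genes, and 0, 1 and 0 had an unadjusted edgeR p under 0.05, against 413, 260 and 667 of all genes. The 2 mimics share the MC libraries, so their comparisons with MC are not independent.

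Across the 10 groups, GCLC, GCLM and TXNRD1 had the 3 sorafenib groups of 24 h on top by mean, in the order MC, M222, M512. Below these groups was a step at which neighbouring groups did not overlap. That step lay between a 6 h group and a 24 h group, and the share of all genes with such a step was not counted. For GCLC that step lay between IC with DMSO (66.8 ± 2.63 CPM) and MC with sorafenib (105 ± 22.8), and for TXNRD1 between the same groups (127 ± 3.57 and 161 ± 33.7, SD, n = 3). Of the groups further down, 1 culture of I200c with DMSO reached the lowest culture of MC with sorafenib for GCLM (81.1 against 79.1 CPM) and for TXNRD1 (145 against 137), and no such culture did for GCLC. GCLM had a further step between MC and M222 with sorafenib, and its highest group mean was 6.62 times its lowest, against 3.4 times for GCLC and 3.01 for TXNRD1. Elsewhere in the order, neighbours overlapped for all 3. GSR and OSGIN1 had the same 3 groups on top, M512 with sorafenib highest at 270.0 ± 41.2 and 35.4 ± 7.75 CPM, but every pair of neighbouring groups overlapped, over ranges of 2.15 and 5.29 times. In NFE2L2 the 5 sorafenib groups were above the 5 DMSO groups, from 198 ± 48.2 CPM in MC with DMSO to 326 ± 8.94 in I200c with sorafenib, a range of 1.65 times, with neighbours overlapping throughout. NQO1 spanned 1.47 times, from 302 ± 64.4 in MC with sorafenib to 444 ± 22.3 in M512 with DMSO, and HMOX1 2.55 times, from 27.4 ± 5.6 in I200c with sorafenib to 69.7 ± 8.14 in M512 with sorafenib, and neighbours again overlapped in both.

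The partners and regulators of NRF2 formed a list of 11 genes, all tested. None was called for sorafenib in IC or I200c; at 24 h, 2 were higher in MC, 3 higher and 1 lower in M222, and 5 higher in M512, where 2.6%, 4.38% and 9.96% of all genes were called. MAFF and MAFG, small MAF partners of NRF2, rose in MC by 2.01 (SE 0.35) and 1.79 (SE 0.31) and in M222 by 2.26 (SE 0.35) and 1.62 (SE 0.31) (edgeR adjusted p = 0.0015, 0.00153, 0.000535 and 0.00347). MAFF in MC was at 9.5, 9.7 and 8.53 CPM with DMSO and 35.5, 24.2 and 51.6 with sorafenib. In M512 the largest were MAFF, 2.38 (SE 0.35, adjusted p = 9.05e-05), and MAFK, 2.06 (SE 0.33, adjusted p = 0.000228), from edgeR. RBX1, the RING subunit of the KEAP1 ligase, fell in M222 by 0.78 (SE 0.23, edgeR adjusted p = 0.0476), a call that held in 3 of the 18 fits that left out 1 library and reached an adjusted p of 0.312 without M222 sorafenib replicate 1. KEAP1 itself was at -0.12 (SE 0.23), -0.32 (SE 0.23) and 0.41 (SE 0.23) in MC, M222 and M512 and was not called. In the test of time with sorafenib, MAFG was called, at 2.36 (SE 0.35, adjusted p = 0.0179) in edgeR, in 6 of 12 fits without 1 library, with an adjusted p of up to 0.0819 without MC sorafenib replicate 3.

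Of 23 other genes known as NRF2 targets, 22 were tested. For sorafenib, 0 were called in IC, 1 lower in I200c, 1 higher in MC, 1 higher in M222 and 2 higher in M512. Over all genes, 0.0393%, 2.28%, 2.6%, 4.38% and 9.96% were called in these. The median log2 fold change of the list was 0.05, 0.09 and 0.24 in MC, M222 and M512. No change of the list as a whole is read from these counts. SLC7A11, the cystine transporter subunit that supplies cysteine for glutathione, rose at 24 h by 2.91 (SE 0.42), 2.84 (SE 0.42) and 2.98 (SE 0.41) in MC, M222 and M512 (edgeR adjusted p = 0.000532, 0.000422 and 4.48e-05). At 6 h in I200c it fell by 1.25 (SE 0.32, edgeR adjusted p = 0.0388), a call that held in 5 of 12 fits without 1 library, with an adjusted p of up to 0.160 without I200c sorafenib replicate 1. Its interaction with time was 3.16 (SE 0.54, adjusted p = 0.0253) in edgeR, called in 4 of 12 such fits and with an adjusted p of up to 0.109 without MC sorafenib replicate 3. SLC48A1, a haem transporter, rose in M512, at 1.09 (SE 0.27, adjusted p = 0.00946) in edgeR. The remaining tested genes of the list, among them TXN, PGD, TALDO1 and the ferritin genes FTH1 and FTL, were not called for sorafenib in any transfection. With the mimic of miR-512-3p in DMSO, 2 of the 22 were called, against 0.634% of all genes. They were the aldo-keto reductases AKR1B10, at 2.69 (SE 0.62, adjusted p = 0.0442), and AKR1C1, at 0.92 (SE 0.22, adjusted p = 0.0481), in edgeR. AKR1B10 was at 25.4, 33.2 and 27.6 CPM in M512 against 3.55, 9.46 and 0.882 in MC, and AKR1C1 at 645, 561 and 633 against 296, 347 and 324. Both calls were lost in most fits without 1 library, with adjusted p of up to 0.238 and 0.232 without MC DMSO replicate 3, and AKR1C1 has close paralogs that can share reads.

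Glutathione handling beyond synthesis and reduction (13 genes, 12 tested) gave 1 call for sorafenib, in M512. There 9.96% of all genes were called, so nothing is read from this 1 of 12. The gene was MGST2, a microsomal glutathione transferase, lower at -0.86 (SE 0.21, adjusted p = 0.0105) in edgeR. Its call was lost in 2 of 18 fits without 1 library (up to 0.0838 without M512 DMSO replicate 3). Among other antioxidant enzymes (18 genes, 17 tested), 1 was higher in MC, 1 higher and 1 lower in M222, and 3 higher and 1 lower in M512, where 2.6%, 4.38% and 9.96% of all genes were called, so nothing is read from the 1 and 2 of 17 in MC and M222. SESN2, sestrin 2, which is also a target of the stress factors ATF4 and p53, rose by 1.06 (SE 0.26), 1.68 (SE 0.27) and 2.09 (SE 0.27) (edgeR adjusted p = 0.029, 0.000629 and 2.29e-05), and in MC the call was lost in 4 of 18 fits without 1 library, with an adjusted p of up to 0.156 without MC sorafenib replicate 1. The 18 fits include those without a library of M222 or M512. GPX4, the glutathione peroxidase of lipid peroxides, rose in M512, at 1.51 (SE 0.42, adjusted p = 0.0219) in edgeR, with an adjusted p of up to 0.105 without M512 sorafenib replicate 3. CAT, catalase, was lower in M512, at -0.91 (SE 0.24, adjusted p = 0.0168) in edgeR, up to 0.11 without M512 sorafenib replicate 1, and PRDX4, a peroxiredoxin of the endoplasmic reticulum, was lower in M222, at -0.74 (SE 0.21, adjusted p = 0.041), up to 0.211 without M222 sorafenib replicate 1.

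**Figure D4:**
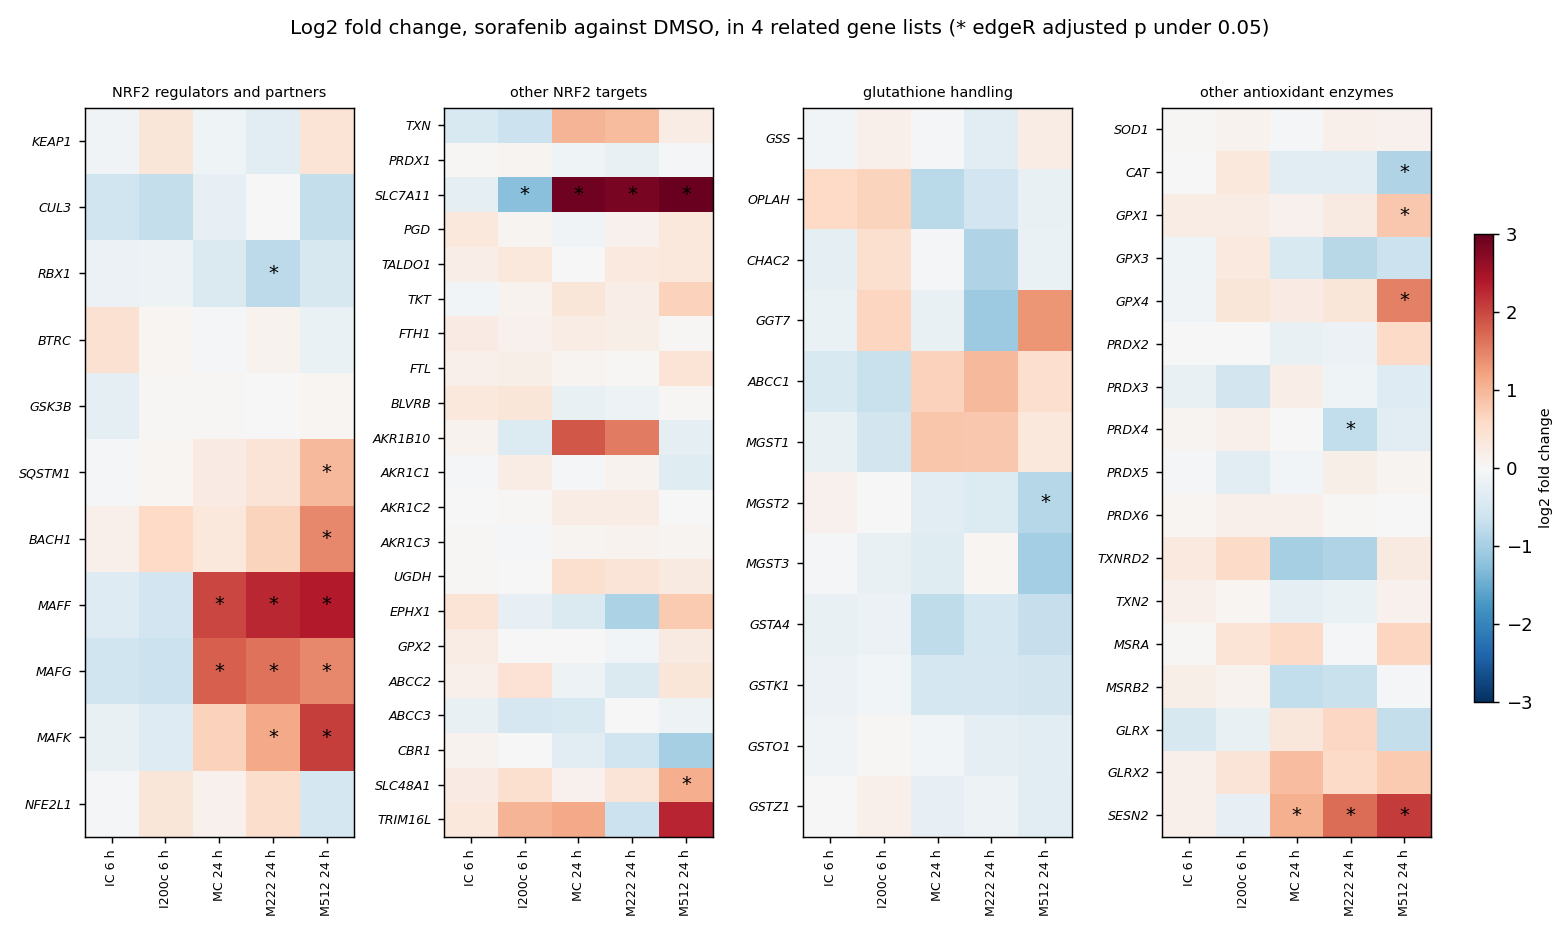
Log2 fold change of sorafenib against DMSO, as colour from blue (lower) to red (higher), for tested genes of 4 lists in the 5 transfections, with an asterisk where the edgeR adjusted p was under 0.05. SLC7A11 is the darkest row at 24 h (2.84 to 2.98), and MAFF, MAFG and SESN2 carry asterisks in all 3 transfections of 24 h, while most other genes carry none.

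Genes with the most similar pattern were sought over the 30 libraries among 12537 other genes tested at both times, as the Pearson correlation of log2 levels (CPM plus 0.5), which is a description because the libraries share groups, treatment and scaling. The closest to GCLM was GCLC (r = 0.93), and the closest to GCLC was SLC7A11 (0.93), which was also the closest to TXNRD1 (0.921). For GSR it was ERN1 (0.917), for OSGIN1 FOXP1 (0.886), for NQO1 PIP4K2B (0.849), for NFE2L2 DHX36 (0.8) and for HMOX1 MAZ (0.762). Between members, GCLC and GCLM correlated at 0.808 over the 12 libraries of 6 h and 0.934 over the 18 of 24 h, and GCLC and TXNRD1 at 0.795 and 0.945. TXNRD1 and NFE2L2 stood at -0.616 at 6 h and 0.771 at 24 h, and HMOX1 and NFE2L2 at -0.849 and -0.204. NQO1 went with GSR at 6 h (0.817) and not at 24 h (-0.0704), where GSR went with TXNRD1 (0.913).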

How the data were processed

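Messenger RNA of 30 HepG2 cultures was read with QuantSeq 3′ FWD libraries. After trimming, the authors aligned reads to GRCh38 using STAR, counted them per Ensembl gene with HTSeq-count and deposited the raw counts; the submitters' processing notes also name DRAGEN and DESeq2. The annotation release, strand setting and treatment of molecular identifiers are not given in the sources used here, and the authors' second table, divided by size factors, was not used here. Of 60199 lines, 92 named no gene (spike-in names, 3 counts in all) and were left out.

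Depth was 3940000 to 9660000 counts per library, and intervals and limits from counts cover counting error only. The test on counts was edgeR's quasi-likelihood F test (version 4.0.16, under R 4.3.3), two-sided, after filterByExpr and TMM scaling, with 1 coefficient per group. The 12 libraries of 6 h, the 18 of 24 h and the 12 transfection controls were fitted apart, with Benjamini-Hochberg adjustment over all genes of a fit and a threshold of 0.05. The SE is the size of the log2 fold change divided by the square root of F. The procedure was tested on simulated data. Alternatives were RLE and total-count scaling, no filter, DESeq2 1.42.0, a replicate block, all 30 libraries in 1 fit, and leaving out each library of a fit. The library left out often belonged to a group outside the comparison, where it bears on a call only through what the groups share. Same-numbered replicates varied together (r = 0.182 to 0.198 in all 3 pairs) for MC and M222 with DMSO, and in no other pair of groups of an experiment were all 3 above 0.1.

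All 9 genes are named in every comparison. From each of 4 lists, the 2 called genes with the largest change in each direction were named, while KEAP1 and the examples of genes not called were chosen after their values were seen. The genes and lists were chosen with earlier results of these data known. ME1 and CHAC1 were not tested, and SOD2 was not matched. Gene positions and UTRs came from GENCODE 44, miRNAs and promoters from RefSeq. No column lacked a sample. A gene of these lists and some site windows are not reported here.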

Additional observations from a re-analysis of the deposited data

Results flagged for a closer look

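For TXNRD1, the effect of sorafenib differed between the 2 experiments with transfection controls: the log2 fold change was -0.51 in IC at 6 h and 1.17 in MC at 24 h, and the test of the difference gave 1.66 (SE 0.29, edgeR adjusted p = 0.0253). It was the 1 result among these genes that met a rule for a closer look. The call was lost in most fits that left out 1 library, with an edgeR adjusted p of up to 0.112 without MC sorafenib replicate 3. The control oligonucleotide changes together with the time, so the 2 cannot be told apart.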

How the results depend on the processing

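The calls of the 9 genes kept their direction under every alternative: for the 15 called results, 315 of 348 fits kept the call, 33 lost it and none turned the direction. Many of these fits left out a library from a group outside the comparison, which puts the call less to the test. For the 114 results not called, 80 of 2453 fits turned the sign and 30 passed the test. The number of these genes called moved by over 1.5 times in 5 comparisons. For sorafenib in I200c it was 1, against 2 with total counts, 3 without the filter, 3 with DESeq2 and 0 with all 30 libraries in 1 fit. For sorafenib in MC it was 4, against 2 with total counts. For M222 against MC in sorafenib it was 0, against 1 without the filter (GCLM). For M512 against MC in sorafenib it was 0, against 1 (GCLM) without the filter, with DESeq2 and with all 30 libraries in 1 fit. For time with sorafenib it was 1, against 3 without the filter and 3 with DESeq2. GSR passed in M512 with all 30 libraries in 1 fit (edgeR adjusted p = 0.0354), and HMOX1 there without the filter (0.0113) and with all 30 libraries (0.0338). Leaving out 1 library gave 0 to 2 calls for sorafenib in I200c, 1 to 5 in MC, 3 to 5 in M222, 3 to 5 in M512, 0 to 1 for M512 against MC in sorafenib and 0 to 4 for time with sorafenib. The causes were not tested, except that leaving out a library leaves fewer samples.

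Replicates with the same number correlated above 0.1 in 15 of 63 pairs, with r from -0.14 to 0.247, and for MC and M222 with DMSO in all 3 pairs. Each library was also compared with the 3 replicates of every other group of its experiment. In 66 of these 126 comparisons it correlated best with its own number, where 1 in 3 would do so without any pairing. A replicate block gave 1 call (GCLM, edgeR adjusted p = 0.0351) in place of 0 for M512 against MC in sorafenib and moved no other count of these genes by over 1.5 times.

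Over all genes, counts moved more. For sorafenib, IC had 5 calls, against 62 without the filter, 34 with DESeq2, 2 with the block and 0 in the fit of 30. I200c had 291 (519, 482 and, in the fit of 30, 91), MC 344 (684, 714 and 822), M222 580 (1018 with DESeq2 and 1104 in the fit of 30) and M512 1319 (2046 in the fit of 30). In DMSO, I200c had 2 (4 with total counts, 32, 4, 0 with the block and 0), M222 0 (47, 34, 3 with the block and 32) and M512 84 (292, 235 and 215). In sorafenib, I200c had 0 (7 without the filter), M222 0 (46, 26, 7 with the block and 12) and M512 47 (91 with total counts, 169, 227, 89 with the block and 227). Interactions were 0 for I200c (19 and 1), 0 for M222 (2, 1 and 1), 1 for M512 (28, 13 and 3) and 27 for time (386, 216 and 11 with the block). Where 2 or 3 values stand without a name they are, in order, without the filter, with DESeq2 and in the fit of 30. DESeq2 gave no adjusted p for SRXN1 in 7 comparisons. Without 1 library, the counts over all genes ran from 0 to 17 for sorafenib in IC, 129 to 503 in I200c, 112 to 602 in MC, 204 to 749 in M222 and 760 to 1430 in M512, from 18 to 118 for M512 against MC in DMSO, 18 to 57 for it in sorafenib and 0 to 284 for time. Low counts limit SRXN1 in every comparison, and the part of depth and of the overlapping gene was not tested.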
